A study of Mus musculus with 9 samples.

Results

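The dual-specificity MAP kinase phosphatases examined here were Dusp1, Dusp2, Dusp4, Dusp5, Dusp6, Dusp7, Dusp8, Dusp10 and Dusp16, found by mapping Ensembl identifiers to these gene symbols. They account for 9 of the 47643 genes in the count table. RNA was sequenced from bone marrow-derived mast cells (BMMCs), primary cells grown out of the marrow of C57BL/6 mice for at least 4 weeks in WEHI-3-conditioned medium, a source of IL-3. The libraries formed 3 groups of 3 replicates: Control, IgE+BSA and IgE+BSA+Luteolin. In the stimulated groups IgE loaded on its high-affinity receptor was crosslinked with antigen coupled to bovine serum albumin, and the last group also received luteolin, a plant flavone, at 10 µM for 24 h. The labels carry this luteolin protocol on every sample, the sources used here place luteolin both before and after stimulation, and the study describes Control cells as untreated without a separate word on IgE. The age of the mice is not given in the sources used here. Nothing in the labels says that replicates came from separate cultures or mice, so p-values measure only the spread between these samples, which may be technical.

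MAP kinases (ERK, JNK and p38) are switched on by phosphorylation of a threonine and a tyrosine in their activation loop, and the phosphatases of this family remove both phosphates. Several of the genes are themselves switched on by MAP kinase signalling, so that the family forms a negative feedback on the kinases. Crosslinking of the IgE receptor activates ERK, JNK and p38 in mast cells. The members were ordered by substrate preference and place in the cell. Dusp1, Dusp2 and Dusp4 encode inducible nuclear enzymes with broad substrates, Dusp5 (nuclear) and Dusp6 and Dusp7 (cytoplasmic) prefer ERK, and Dusp8, Dusp10 and Dusp16 prefer JNK and p38. Preferences in cells vary with the system studied. In GENCODE (GRCm38) the protein-coding genes lie at Dusp1 (chr17:26505590-26562128, minus strand), Dusp2 (chr2:127336159-127338376, plus strand), Dusp4 (chr8:34807297-34819894, plus strand), Dusp5 (chr19:53529109-53542431, plus strand), Dusp6 (chr10:99263231-99267489, plus strand), Dusp7 (chr9:106368632-106375724, plus strand), Dusp8 (chr7:142079490-142095843, minus strand), Dusp10 (chr1:184013302-184075636, plus strand) and Dusp16 (chr6:134715468-134792625, minus strand).

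The start regions of 4 members are shown because they carry, or in the case of Dusp7 lack, the regulatory motifs that were searched. Each window holds 250 bases before and 50 bases after the RefSeq gene start in GRCm38.p6, is written 5′ to 3′ on the strand of the gene, and has motif matches in capitals. The windows lie at chr17:26508423-26508722 (minus strand) for Dusp1, chr7:142095235-142095534 (minus strand) for Dusp8, chr19:53528895-53529194 (plus strand) for Dusp5 and chr9:106368382-106368681 (plus strand) for Dusp7.
Dusp1: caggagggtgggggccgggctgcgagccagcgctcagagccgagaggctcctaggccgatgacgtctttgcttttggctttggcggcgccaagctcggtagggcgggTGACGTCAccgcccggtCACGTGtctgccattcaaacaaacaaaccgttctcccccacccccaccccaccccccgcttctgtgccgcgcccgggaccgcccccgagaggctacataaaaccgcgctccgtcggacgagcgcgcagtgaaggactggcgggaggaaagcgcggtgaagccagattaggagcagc
Dusp8: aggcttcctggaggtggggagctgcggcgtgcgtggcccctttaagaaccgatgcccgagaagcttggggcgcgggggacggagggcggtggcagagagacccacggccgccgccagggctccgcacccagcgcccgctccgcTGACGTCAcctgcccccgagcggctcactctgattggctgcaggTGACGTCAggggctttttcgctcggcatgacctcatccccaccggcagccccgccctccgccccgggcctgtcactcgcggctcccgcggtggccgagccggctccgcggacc
Dusp5: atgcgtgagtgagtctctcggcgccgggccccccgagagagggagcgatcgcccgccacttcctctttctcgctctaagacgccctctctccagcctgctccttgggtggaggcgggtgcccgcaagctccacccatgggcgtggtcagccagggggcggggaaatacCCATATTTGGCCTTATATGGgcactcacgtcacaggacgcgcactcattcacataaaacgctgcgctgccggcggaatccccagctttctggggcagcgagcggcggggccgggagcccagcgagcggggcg
Dusp7: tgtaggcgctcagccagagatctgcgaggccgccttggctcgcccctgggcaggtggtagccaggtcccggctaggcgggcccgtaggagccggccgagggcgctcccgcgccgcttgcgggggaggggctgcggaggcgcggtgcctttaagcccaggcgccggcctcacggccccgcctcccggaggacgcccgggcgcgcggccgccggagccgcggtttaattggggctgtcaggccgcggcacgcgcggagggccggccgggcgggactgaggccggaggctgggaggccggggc

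Windows were matched for 8 of the 9 members, and not for Dusp4. The cAMP response element (CRE, TGACGTCA) was found in 2 of the 8 windows and in 1.79% of all 32851 gene start windows. Dusp1 held a single CRE starting 143 bases before the gene start, followed by an E-box (CACGTG) at 126 bases. Dusp8 held a pair of CREs, at 107 and 63 bases. In Dusp5 the capitals mark 2 adjoining SRF CArG boxes, at 82 and 72 bases before the start, a motif found in 1.63% of all windows. The E-box (7.15% of all windows) was also found in Dusp2, and the EGR motif (GCGNGGGCG, 5.55%) in Dusp2 and Dusp16. AP-1 (TGANTCA, 7.81%) and the kappaB box (6.93%) were not matched in any of the 8 windows, and Dusp6, Dusp7 and Dusp10 held none of the 6 motifs. Both strands were searched, and a match or its absence describes only the letters of the window.

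Counts on genes ranged from 9515004 to 24605689 per library, so that 3 counts corresponded to 0.121 to 0.291 CPM, counts scaled to a common library size with TMM factors. The 9 mast cell markers summed to between 54226 and 81682 CPM in every library, and the 3 basophil markers to between 1446 and 1878 CPM. Macrophage markers summed to between 347.1 and 405.3 CPM, and the 8 lymphoid markers to between 2.39 and 4.16 CPM, with Cd3e at 0. With luteolin against IgE+BSA, 5 of the 9 mast cell markers rose and 2 fell, the 3 basophil markers rose, and 2 of the 7 neutrophil markers rose, by edgeR, where 18.1% of all tested genes rose and 21.9% fell. In bulk RNA, fewer cells of a type and less RNA per cell cannot be told apart. The Control libraries differed among themselves. Replicate 1 had a root mean square log2 difference of 0.73 from each of replicates 2 and 3, which differed from each other by 0.28. Replicate 1 was nearer to the 6 stimulated libraries (0.45 to 0.62) than replicates 2 and 3 were (0.64 to 0.77). The 7 neutrophil markers summed to 216.0 CPM in replicate 1, 7.07 and 5.69 CPM in replicates 2 and 3, 145.1 to 158.7 CPM in IgE+BSA and 168.1 to 198.5 CPM in IgE+BSA+Luteolin. The 3 basophil markers did not move together. Mcpt8 was at 431.7 CPM in Control replicate 1, 21.8 and 18.7 CPM in replicates 2 and 3, and 292.2 to 368.0 CPM in the stimulated groups. Cd200r3 was at 687.5 CPM in Control replicate 1, 1045 and 1023 CPM in replicates 2 and 3, 615.9 to 654.9 CPM in IgE+BSA and 700.9 to 753.2 CPM with luteolin. Prss34 was at 759.0, 650.5 and 610.9 CPM in Control, 513.0 to 558.0 CPM in IgE+BSA and 580.5 to 660.7 CPM with luteolin. Which Control libraries are typical cannot be told from 3, and the part of these cells in the results was not tested. Results against Control are also given without Control replicate 1, which leaves the Control libraries that are low in the neutrophil markers and in Mcpt8 and high in Cd200r3. Of the calls for IgE+BSA+Luteolin against IgE+BSA over all genes, 54.6% were lower with TMM scaling and 31.4% with library size alone, under which the median log2 change of all genes was 0.13. For IgE+BSA against Control these shares were 31.2% and 63%, with a median of -0.15 under library size alone.

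The family's RNA was high in IgE+BSA and low in IgE+BSA+Luteolin. Summed over the 9 members and divided by exon length, the level was 98.4 ± 25.5 CPM per kb in Control (SD, n = 3), 320.9 ± 6.91 in IgE+BSA and 67.9 ± 2.83 in IgE+BSA+Luteolin. Per kb, Dusp4 was the highest member in IgE+BSA at 123.4 CPM per kb, followed by Dusp6 (80.8), Dusp5 (65.7) and Dusp1 (35.6). Dusp10 (6.32), Dusp16 (3.69), Dusp7 (2.75), Dusp2 (1.43) and Dusp8 (1.13) followed far below, and Dusp2 and Dusp8 were the only neighbours in this order whose libraries overlapped. In IgE+BSA+Luteolin the order per kb was Dusp4 (26.5), Dusp5 (17.8), Dusp6 (9.89), Dusp1 (6.83), Dusp7 (3.73), Dusp10 (1.88), Dusp16 (1.18), Dusp2 (0.0803) and Dusp8 (0.00596 CPM per kb), with no overlap between neighbours. In Control, Dusp5 (31.3), Dusp4 (28.1) and Dusp6 (20.4 CPM per kb) overlapped, as did Dusp10 (4.65) and Dusp7 (4.28). Dusp6 stood above Dusp5 in IgE+BSA and below it in IgE+BSA+Luteolin.

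**Figure D1:**
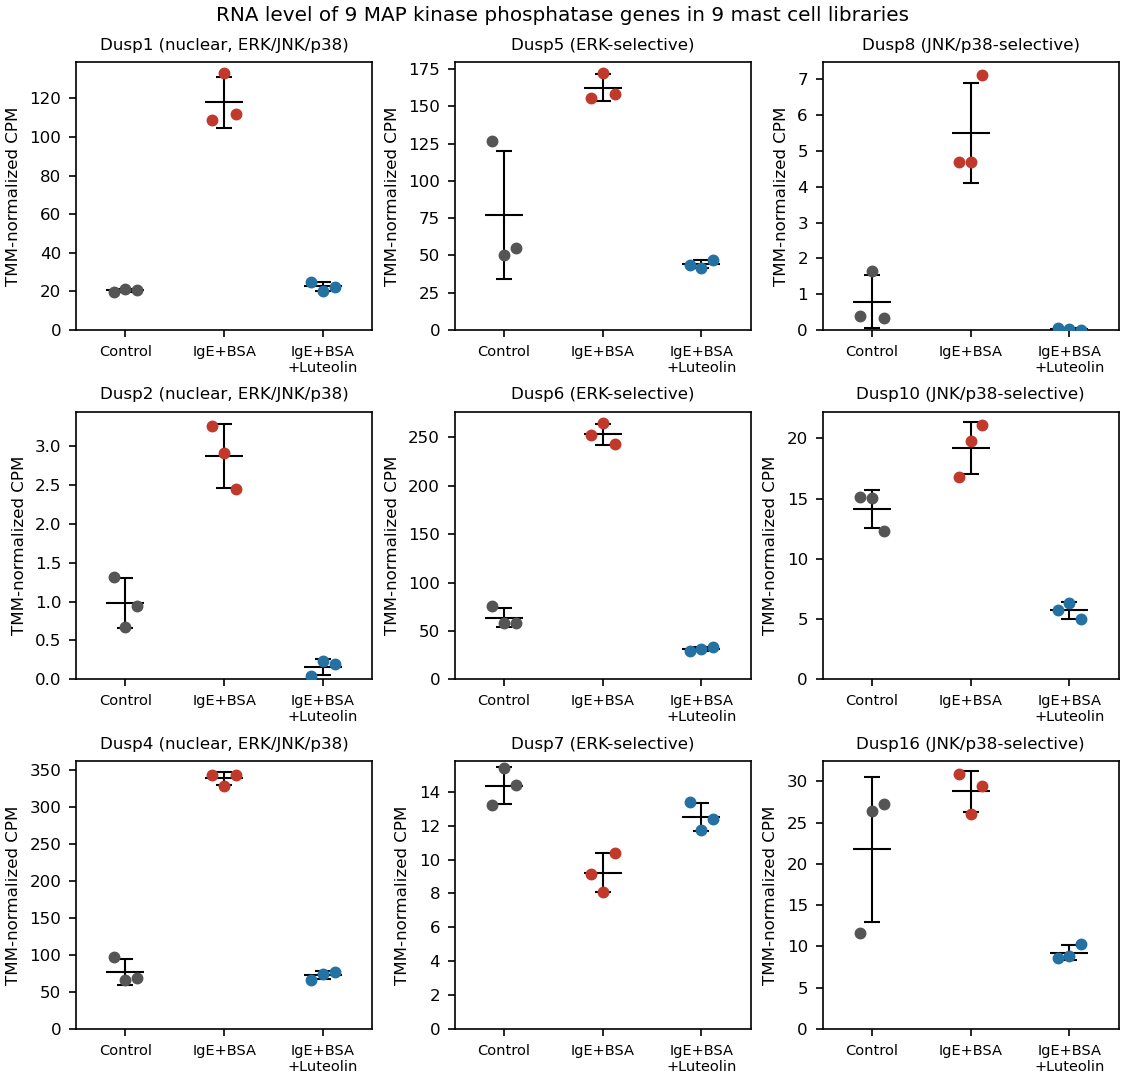
Level of each of the 9 members in CPM per library, by group (points, individual libraries, with lines for the mean and bars for 1 SD). For all members but Dusp7 and Dusp16, all IgE+BSA libraries lay above those of the other groups. Of all tested genes, 16.6% lay above Control in IgE+BSA without overlap, and 26.2% lay below IgE+BSA with luteolin. Dusp8 reached at most 0.0466 CPM with luteolin.

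Among the broad nuclear enzymes, Dusp1, which acts on p38, JNK and ERK, had 19.9, 21.3 and 20.5 CPM in the Control libraries, 108.9, 133.0 and 111.8 CPM in IgE+BSA, and 24.98, 20.4 and 22.4 CPM in IgE+BSA+Luteolin. All IgE+BSA libraries lay above all others, and the Control and luteolin libraries overlapped. Dusp4, a nuclear phosphatase of ERK and JNK, had 96.6, 65.9 and 68.6 CPM in Control, 343.4, 328.0 and 343.2 CPM in IgE+BSA, and 66.7, 74.0 and 76.9 CPM with luteolin. Again the IgE+BSA libraries stood alone and the other groups overlapped. Dusp2, a nuclear phosphatase of immune cells, was low, with 27, 7 and 23 counts in Control, 72, 58 and 50 counts in IgE+BSA, and 1, 6 and 4 counts with luteolin. On the CPM scale its luteolin libraries (0.0466 to 0.243) lay below every Control library (0.678 to 1.31), and every IgE+BSA library (2.44 to 3.25) lay above them.

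Of the ERK-preferring members, Dusp6, the cytoplasmic ERK phosphatase, had 75.6, 58.1 and 58.0 CPM in Control, 252.1, 264.6 and 243.0 CPM in IgE+BSA, and 28.9, 31.0 and 33.1 CPM with luteolin. Its luteolin libraries were lower than every Control library. Dusp5, which acts on ERK in the nucleus, had 126.6, 50.4 and 54.9 CPM in Control, 156.0, 172.7 and 158.5 CPM in IgE+BSA, and 43.4, 41.7 and 46.9 CPM with luteolin. Control replicate 1 lay far above the other Control libraries and nearer to IgE+BSA. Dusp7, a cytoplasmic ERK phosphatase, ran the other way, with 13.2, 15.4 and 14.4 CPM in Control, 9.18, 8.10 and 10.4 CPM in IgE+BSA, and 13.4, 11.7 and 12.4 CPM with luteolin. The IgE+BSA libraries of Dusp7 lay below all the others. Dusp9, a further ERK phosphatase outside the 9 members, stayed between 1.44 and 3.04 CPM in all 9 libraries.

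Of the JNK- and p38-preferring members, Dusp10 had 15.1, 15.0 and 12.3 CPM in Control, 16.8, 19.7 and 21.1 CPM in IgE+BSA, and 5.78, 6.36 and 5.03 CPM with luteolin, with no overlap between the 3 groups. Dusp16 had 11.7, 26.4 and 27.3 CPM in Control, 30.9, 26.0 and 29.5 CPM in IgE+BSA, and 8.58, 8.86 and 10.2 CPM with luteolin. Control replicate 1 was here the low library, less than the others of its group. Dusp8 had 8, 17 and 8 counts in Control, 104, 94 and 146 counts in IgE+BSA, and 1, 1 and 0 counts with luteolin. It therefore did not pass the expression filter, a median above 1 CPM with library size alone and no TMM factor, and its values come from the fit without that filter. Dusp2 passed narrowly, at a median of 1.02 on that scale, and would not have passed on the TMM scale, where its median was 0.948 CPM. Only in IgE+BSA were all its libraries above 1 CPM, so it entered the tested genes through the group where it is high. Counts and medians over the tested members include it.

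IgE+BSA against Control compares stimulated with untreated cells. Antigen, possible IgE loading, and the cell marker differences from and among the Control libraries cannot be told apart here. Dusp1, Dusp4 and Dusp6 rose, so 3 of the 8 tested members were higher, where 2.25% of all 11560 tested genes were higher and 3.27% passed in either direction. Dusp1 rose 5.73-fold (log2 change 2.52, SE 0.12, edgeR adjusted p = 0.000173), Dusp4 4.37-fold (2.13, SE 0.17, 0.00117) and Dusp6 3.95-fold (1.98, SE 0.14, 0.000735). Dusp8 rose in the unfiltered fit (edgeR adjusted p = 0.000186), with 344 counts against 33, a ratio of 9.18 with a 95% interval of 6.41 to 13.5 for counting error only. Control replicate 2, the shallowest library, held 17 of the 33 Control counts, and without it the log2 change of Dusp8 was 3.93 in place of 3.06 (2.65 without Control replicate 3). None of the 8 tested members were called lower by edgeR, where 1.02% of all genes were, and 1 (Dusp7) was at an unadjusted p under 0.05 or with DESeq2, where 9.67% and 5.43% of all genes were, and 0 with limma. Over the 8 tested members the median log2 change was 1.28, against 0.02 over all genes.

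The remaining members did not pass the edgeR test at an adjusted p of 0.05. Dusp2 had a difference of 1.499 on the log2 scale (SE 0.32, edgeR adjusted p = 0.0547), Dusp5 of 1.06 (SE 0.35, 0.152), Dusp10 of 0.44 (SE 0.15, 0.170) and Dusp16 of 0.41 (SE 0.30, 0.492). Over the alternative fits the log2 difference of Dusp16, for which Control replicate 1 was the low library, ranged from 0.05 to 0.62. Dusp7 had a log2 difference of -0.64 (SE 0.15, edgeR adjusted p = 0.0766). By CPM, libraries of the 2 groups did not overlap for 6 of the 8 tested members with IgE+BSA higher and for Dusp7 with IgE+BSA lower, against 16.6% and 12.1% of all genes. Without Control replicate 1, Dusp2 (edgeR adjusted p = 0.00162), Dusp5 (1.92e-09, log2 change 1.57) and Dusp10 (0.0133) also passed as higher and Dusp7 as lower (0.000947), but then 22.6% of all genes passed as higher and 22.4% as lower. Dusp5 shares 547 exonic bases with an antisense gene that the table does not list, and the strand setting used in counting is not stated in the sources used here. Dusp8 likewise shares 66 exonic bases with an unlisted gene on the opposite strand, and Dusp1 shares 11 with Ergic1.

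**Figure D2:**
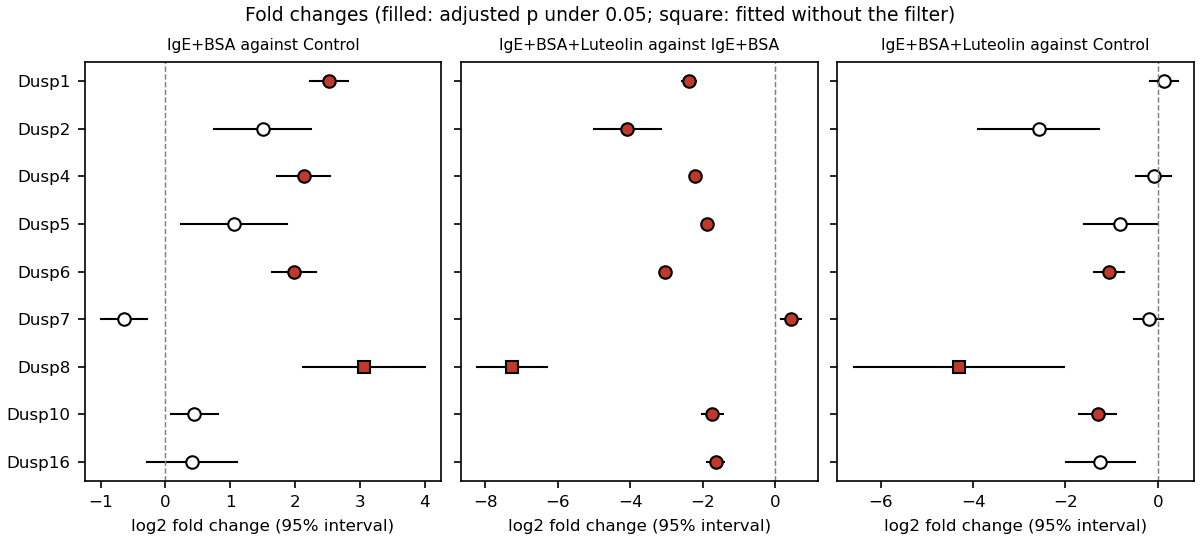
Log2 fold change of each member in the 3 comparisons, as fitted by edgeR (points, filled where adjusted p was under 0.05) with 95% intervals (lines), and Dusp8 as a square from the fit without the expression filter. Dusp6 was at 1.98 in IgE+BSA against Control and at -3.03 in IgE+BSA+Luteolin against IgE+BSA.

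IgE+BSA+Luteolin against IgE+BSA asks what luteolin changes in crosslinked cells. Of the 8 tested members, 7 were lower and Dusp7 was higher, where 21.9% of all tested genes were lower, 18.1% were higher and 40% passed in either direction. Among the 7 is Dusp2, which passed the expression filter only through its high IgE+BSA libraries. The 3 broad nuclear genes fell, Dusp1 by 2.38 on the log2 scale (SE 0.09, edgeR adjusted p = 1.02e-12), Dusp4 by 2.22 (SE 0.06, 2.58e-14) and Dusp2 by 4.08 (SE 0.44, 1.57e-06). Of the ERK-preferring genes, Dusp6 fell by 3.03 (SE 0.07, edgeR adjusted p = 1.49e-15) and Dusp5 by 1.88 (SE 0.07, 4.54e-13). The JNK- and p38-preferring genes Dusp10 and Dusp16 fell by 1.74 (SE 0.13, edgeR adjusted p = 1.93e-08) and 1.64 (SE 0.11, 2.02e-09). Dusp8 had 344 counts in IgE+BSA and 2 with luteolin, a ratio of 184 with a 95% interval of 50.4 to 1522 for counting error only (edgeR adjusted p = 7.24e-47 in the fit without the expression filter). In that fit the spread was in effect pooled over all genes, so this p-value says little of the spread of Dusp8 itself between libraries. The fitted log2 change of Dusp8 was -7.25 with edgeR and -5.50 with limma, which adds a prior count before taking logs, and the call held with both. The median log2 change of the 8 tested members was -2.05, against 0.02 over all genes. By CPM the luteolin libraries did not overlap with IgE+BSA for any of the 8, lower in 7 and higher in Dusp7, against 26.2% and 24.1% of all genes.

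Dusp7 rose by 0.44 on the log2 scale (SE 0.13, edgeR adjusted p = 0.0132). The call was lost when all 9 libraries were fitted together (edgeR adjusted p = 0.0755), without IgE+BSA replicate 2 (0.0504) and without IgE+BSA+Luteolin replicate 1 (0.0695), with the direction the same in every alternative run. All 7 lower calls held under every alternative run, and Dusp8 was an eighth in the fit without the filter.

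IgE+BSA+Luteolin against Control asks how far the treated cells stood from unstimulated ones. It shares its Control libraries with the first comparison and its luteolin libraries with the preceding one, and those 2 share the IgE+BSA libraries. Dusp6 and Dusp10 were lower than in Control, so 2 of the 8 tested members passed, where 2.75% of all tested genes were lower, and none of the 8 passed as higher by edgeR (0.285% of all genes were higher and 3.04% passed in either direction). With DESeq2, 0 members were higher and 4 lower, where 3.04% of all genes were higher and 8.89% lower. With limma, 0 were higher and 2 lower, where 0.303% and 2.47% of all genes were. At an unadjusted edgeR p under 0.05, 0 were higher and 5 lower, where 8.08% and 14.9% of all genes were. Dusp6 fell by 1.05 on the log2 scale (SE 0.14, edgeR adjusted p = 0.0152) and Dusp10 by 1.30 (SE 0.17, 0.0145). Dusp1 (log2 difference 0.13, 95% interval -0.16 to 0.43) and Dusp4 (-0.09, -0.47 to 0.29) did not pass. Dusp8 had 33 counts in Control and 2 with luteolin, a ratio of 20.0 with a 95% interval of 5.12 to 172.1 for counting error only (edgeR adjusted p = 0.0306 without the expression filter). The Dusp8 call was lost without Control replicate 2 (edgeR adjusted p = 0.259, log2 change -3.33), IgE+BSA+Luteolin replicate 2 (0.166) or IgE+BSA+Luteolin replicate 3 (0.0872) and with limma (0.0819, log2 change -2.47, against -4.31 in the edgeR fit). By CPM, 5 of the 8 tested members did not overlap with luteolin lower, against 14.9% of all genes.

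The other members had log2 differences of -2.58 for Dusp2 (edgeR adjusted p = 0.0590), -1.24 for Dusp16 (0.0851), -0.82 for Dusp5 (0.208) and -0.20 for Dusp7 (0.401). None of the 8 tested members was called by edgeR when a single library other than Control replicate 1 was left out. Leaving out Control replicate 2 or 3, or any luteolin replicate, raised the edgeR adjusted p of Dusp6 to between 0.0504 and 0.124 and that of Dusp10 to between 0.0504 and 0.118, and left 2 to 47 genes called over all. Without Control replicate 1, Dusp2 (edgeR adjusted p = 0.00615), Dusp5 (0.0115) and Dusp16 (1.88e-08) were lower too, where 30.1% of all genes were lower and 29.9% were higher. The log2 difference of Dusp5 then shrank to -0.27. The log2 difference of Dusp4 then turned to 0.10 (edgeR adjusted p = 0.308).

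The make-up of the family also differed between groups, as a description with no test. The broad nuclear class held 35.8 ± 2.64% of the summed CPM per kb in Control, 50.02 ± 0.84% in IgE+BSA and 49.2 ± 0.65% in IgE+BSA+Luteolin (SD, n = 3). The ERK-preferring class held 56.0 ± 5.31%, 46.5 ± 1.04% and 46.3 ± 0.87%, in the same order. The JNK- and p38-preferring class held 8.20 ± 2.75%, 3.47 ± 0.31% and 4.53 ± 0.34%. Without length correction these were 13.3%, 5.72% and 7.58%. In Control, replicate 1 held 5.13% and replicates 2 and 3 held 10.4% and 9.02% per length. The shares in IgE+BSA and IgE+BSA+Luteolin lay close together for the first 2 classes although the summed level differed. Among the ERK-preferring members, Dusp6 held 25.2 ± 0.64% of the whole 9-member sum in IgE+BSA and 14.6 ± 0.45% with luteolin, while Dusp5 held 20.5 ± 0.69% and 26.2 ± 0.84% and Dusp7 held 0.858 ± 0.12% and 5.50 ± 0.50%.

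**Figure D3:**
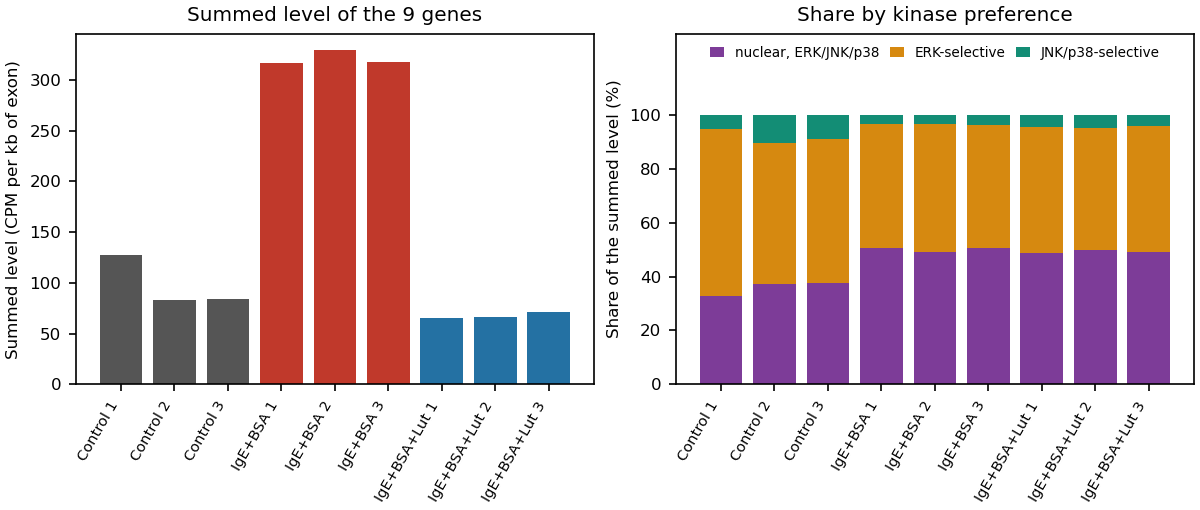
Summed level of the 9 members in CPM per kb (left) and the percent of it held by each preference class (right), with a bar per library. The broad nuclear class averaged 35.8% in Control and 50.02% in IgE+BSA.

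The ratio of Dusp6 to Dusp4 counts, chosen after these values were seen, was 0.782, 0.882 and 0.846 in Control, 0.734, 0.807 and 0.708 in IgE+BSA, and 0.434, 0.418 and 0.430 with luteolin. All luteolin libraries lay below all others. The exact two-sided permutation test gave p = 0.1 for luteolin against IgE+BSA and for luteolin against Control, the smallest p possible with 3 against 3, and p = 0.2 for IgE+BSA against Control. Adjusted over the 3 comparisons, these were 0.15, 0.15 and 0.2.

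Other genes of the pathway were counted from lists, which were chosen with earlier results of these data known. Their counts beside the shares of all genes are therefore a description and not a test. ERK-responsive genes, which include immediate-early transcription factors and feedback inhibitors, had 12 of 14 members tested. Of these, 7 rose and none fell in IgE+BSA against Control (2.25% of all tested genes rose), with a median log2 change of 1.84. Without Control replicate 1, 10 of the 12 rose, where 22.6% of all genes did. Egr2 (3.98), Fos (3.25), Egr3 (2.52) and the feedback inhibitor Spry2 (2.07) had the largest rises on the log2 scale. With luteolin against IgE+BSA, 11 of the 12 fell and none rose (median -1.76, against 21.9% of all genes lower), with Egr2 at -4.62, Egr3 at -4.08, Fosl1 at -3.58 and Spry2 at -2.76. With library size alone, 1 of these 12 was called higher and 11 lower, where 33.4% of all genes were higher and 15.3% lower. Against Control, luteolin left Fos higher (2.56) and Ier3 (-1.05) and Egr2 (-0.65) lower, 1 higher and 2 lower of the 12 (0.285% and 2.75% of all genes). DESeq2 called 2 higher and 4 lower (3.04% and 8.89% of all genes), limma 1 and 1 (0.303% and 2.47%). Without Control replicate 1 there were 3 higher and 7 lower, where 29.9% and 30.1% of all genes were.

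Genes related to JNK and p38 had 9 of 10 members tested. The list includes substrates of these kinases, such as Mapkapk2, so it is not a readout of genes that respond to them. In IgE+BSA against Control 5 rose and none fell (median log2 change 0.81), where 2.25% of all genes rose and 1.02% fell. Without Control replicate 1, 5 rose and 1 fell, where 22.6% and 22.4% of all genes did. The largest changes on the log2 scale were Atf3 at 3.72, Jun at 2.47, the mRNA decay factor Zfp36 at 1.90 and the p38 substrate kinase Mapkapk2 at 1.20. With luteolin against IgE+BSA 8 of the 9 fell (median -1.60), where 21.9% of all genes fell, with Atf3 at -4.33, Jun at -3.04, Zfp36 at -2.91 and the stress factor Ddit3 at -2.87, and 7 fell with library size alone, where 15.3% of all genes did. Against Control, Ddit3 (-2.73) and Jund (-0.80) were lower, 2 of the 9 (2.75% of all genes). DESeq2 called 4 lower (8.89% of all genes) and limma 2 (2.47%), and 5 were lower without Control replicate 1, where 30.1% of all genes were.

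The kinases and their other regulators passed at shares to be read against the 40% of all genes that passed with luteolin against IgE+BSA and the 3.27% in IgE+BSA against Control. In the latter, 10.8% of all genes were higher at an unadjusted p under 0.05 and 5.18% with DESeq2. Of the 7 tested of 10 MAP kinase genes, none passed by edgeR, DESeq2 or limma in IgE+BSA against Control, where 1 was higher at an unadjusted p under 0.05, and with luteolin against IgE+BSA Mapk3 (ERK1) rose by 0.23 on the log2 scale. Of the 7 MAP kinase kinases, none passed by edgeR in IgE+BSA against Control (2 higher at an unadjusted p under 0.05, 1 with DESeq2, 0 with limma), and with luteolin against IgE+BSA Map2k3 (-0.58) and Map2k7 (-0.21) fell and Map2k1 (0.17) rose. Among 8 tested atypical dual-specificity phosphatases (of 15), with luteolin Dusp18 (-2.46), Styx (-0.79), Dusp3 (-0.77) and Dusp11 (-0.35) fell and Dusp23 (0.37) rose, and none passed by edgeR in IgE+BSA against Control (1 higher at an unadjusted p under 0.05 and 1 with DESeq2, 0 with limma). Of the 6 tested of 8 other MAP kinase phosphatases, Ppm1d (-0.40) and Ppp2ca (-0.24) fell with luteolin, and none passed by edgeR in IgE+BSA against Control (1 higher at an unadjusted p under 0.05 and 1 with DESeq2, 0 with limma). In IgE+BSA+Luteolin against Control, none of the tested genes of the MAP kinase, MAP kinase kinase, atypical phosphatase and other phosphatase lists passed by edgeR or limma, while at an unadjusted p under 0.05, and equally with DESeq2, 1 MAP kinase kinase was higher and 2 atypical and 1 other phosphatase were lower. Of all genes, 8.08% were higher and 14.9% lower at that unadjusted p, and 3.04% and 8.89% with DESeq2. With library size alone, luteolin against IgE+BSA gave 2 higher and 0 lower MAP kinases, 2 and 1 MAP kinase kinases, 3 and 4 atypical phosphatases, and 2 and 2 other phosphatases, where 33.4% of all genes were higher and 15.3% lower. Without Control replicate 1, luteolin against Control gave 1 higher and 0 lower MAP kinases, 3 and 0 MAP kinase kinases, 1 and 4 atypical phosphatases, and 2 and 1 other phosphatases, where 29.9% of all genes were higher and 30.1% lower. In IgE+BSA against Control the same exclusion gave 0 and 0, 5 and 0, 1 and 2, and 1 and 1 in that order, where 22.6% and 22.4% of all genes were.

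**Figure D4:**
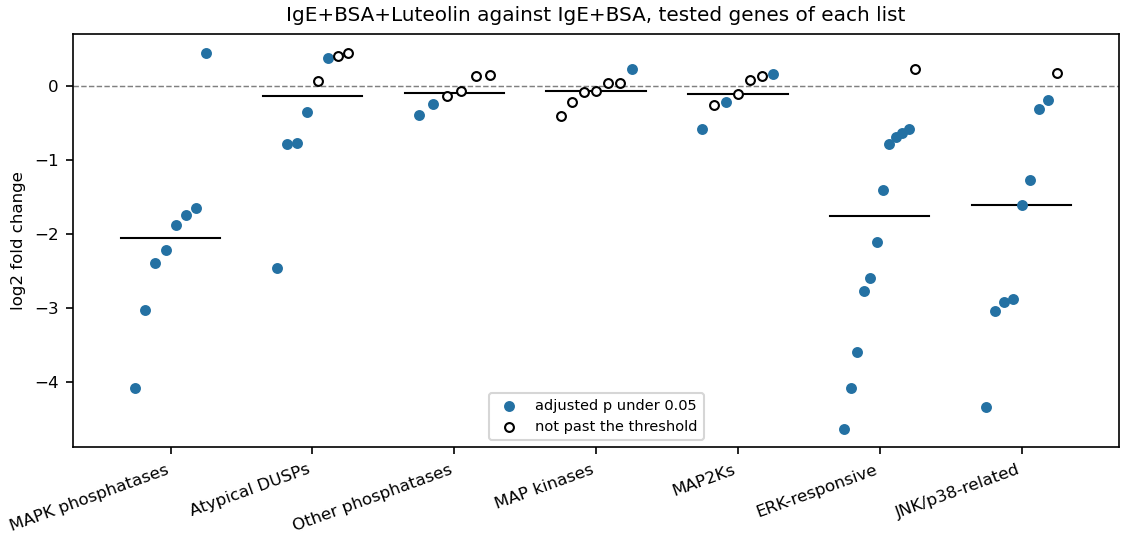
Log2 fold change of the tested genes of each list in IgE+BSA+Luteolin against IgE+BSA (points, filled where edgeR adjusted p was under 0.05) with list medians (lines). The medians were -2.05 for the members, -1.76 for ERK-responsive and -1.60 for JNK- and p38-related genes.

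The 2 non-member genes with the most similar profile were taken for each tested member, by the root mean square difference of log2 CPM over the 9 libraries after centring each gene. For Dusp4 these were Hbegf (0.11) and Tnfsf14 (0.17), for Dusp6 Maff (0.14) and Zfp36 (0.19), and for Dusp5 Hmox1 (0.14) and Socs3 (0.20). For Dusp1 they were Fosb (0.20) and Dnajb1 (0.21), for Dusp2 Nfkbia (0.45) and Maff (0.49), and for Dusp10 Cfap43 (0.17) and Vmp1 (0.18). Dusp16 was nearest to Skil (0.10) and Zfand5 (0.11), and Dusp7, the member that ran the other way, to Cnnm3 (0.09) and Sbk1 (0.10). Across all genes the median distance to a member ranged from 0.39 for Dusp7 to 1.55 for Dusp2.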

How the data were processed

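RNA from BMMCs was measured in 3 groups of 3 libraries, assigned by the labels. The authors sequenced stranded mRNA libraries, mapped reads to mm10 (STAR 2.7.0f) and deposited unnormalized counts for each Ensembl gene. The annotation release and strand setting are not given in the sources used here. Members were matched by symbol through GENCODE (GRCm38), which held 47224 of 47643 identifiers. Members and gene lists were chosen with earlier results of these data known.

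The 11560 genes whose median CPM by library size alone exceeded 1 entered edgeR (4.0.16, in R 4.3.3) with TMM scaling and a two-sided quasi-likelihood test on 6 libraries per comparison. Benjamini-Hochberg adjustment ran over all tested genes, with a threshold of 0.05. Printed CPM values are TMM-normalized, and CPM per kb divides by merged exon length. Standard errors were derived from the log2 change and its F statistic. Named genes are the 9 members, Dusp9, up to 4 genes per list and comparison past the threshold with the largest change, and the 2 nearest genes per member. Dusp11, Ergic1 and the cell type markers Cd3e, Mcpt8, Cd200r3 and Prss34 were named outside this rule, after their values were seen. The scripts were tested on simulated data. No replicates agreed within sampling noise, since chi-square divided by its degrees of freedom was at least 4.05 for every pair. Alternatives changed the scaling, the filter, the tool (limma 3.58.1 or DESeq2 1.42.0), the libraries fitted, gene length correction, a replicate block or a single replicate. Promoter windows are from RefSeq.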

Additional observations from a re-analysis of the deposited data

How the results depend on the processing

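Calls of lower members with luteolin against IgE+BSA numbered 7 in every alternative, leaving out a replicate included (7 to 7), except 8 without the filter, where Dusp8 enters and 11.9% of all genes were lower, against 7.93% with all 9 libraries and 15.3% with library size alone. Higher members in IgE+BSA against Control numbered 3 in the reported fit, 6 without the filter, 5 with DESeq2 and 4 with all 9 libraries fitted together, and ranged from 3 to 6 when a replicate was left out. Of all genes tested, 1.83%, 5.18% and 5.83% were higher under those alternatives. Lower members there numbered 0, and 1 with library size alone, with DESeq2 or with all 9 libraries fitted together (0 to 1 with a replicate left out), where 2.55%, 5.43% and 3.73% of all genes were lower. The higher member with luteolin against IgE+BSA was 1, and 0 with all 9 libraries together (0 to 1), where 1.52% of all genes were higher. Lower members with luteolin against Control numbered 2, and 4 without the filter, with DESeq2 or with all 9 libraries (0 to 5), where 3.18%, 8.89% and 7.72% of all genes were lower. The log2 difference of Dusp4 in that comparison reversed to 0.10 without Control replicate 1 (-0.19 to 0.10 with a replicate left out). Without length correction the JNK and p38 class held 13.3% in Control, 5.72% in IgE+BSA and 7.58% with luteolin, the broad nuclear class 49.0% and 48.2% in the latter groups, and the ERK class 45.3% and 44.2%. The cause of these shifts was not tested, beyond the genes or samples each alternative removes. Genes called over all tested numbered 378 in IgE+BSA against Control, and 618 without the filter, 1227 with DESeq2, 1105 with all 9 libraries and 90 to 5207 with a replicate left out. They numbered 4624 with luteolin against IgE+BSA and 1093 with all 9 libraries. With luteolin against Control they numbered 351, and 811, 1379, 1251 and 2 to 6931. Against Control, 5207 and 6931 came without Control replicate 1.

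With the replicate block, members called were 3 higher and 0 lower in IgE+BSA against Control, 1 and 7 with luteolin against IgE+BSA, and 0 and 2 with luteolin against Control, as without it. Genes called over all were 144, 5582 and 212. Same-numbered libraries deviated together with a correlation of -0.26 to 0.31 and not every pair exceeded 0.1, so the numbers were not taken as pairing samples. Control replicate 2 had the fewest counts, 9515004, and Dusp2 and Dusp8 rest on few counts in Control and with luteolin.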
